A study of Rattus norvegicus with 28 samples.

Results

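Adamts2, Adamts14, Bmp1 and P3h3 encode enzymes that process newly made collagen. They were taken as 4 genes of the 32883 in the count files, each matched by the Ensembl identifier that the study's list of VDR-OE genes pairs with its symbol: ENSRNOG00000061484 for Adamts2, ENSRNOG00000000563 for Adamts14, ENSRNOG00000010890 for Bmp1 and ENSRNOG00000016071 for P3h3. That list names 1998 genes, chosen for their small p-values when the authors compared VDR-OE with empty vector legs, so the 4 symbols could be matched only because they did well in that comparison. The VDR-OE change of the 4 genes is therefore described here, and their number past a threshold in it is not independent evidence. RNA was sequenced from the tibialis anterior (TA), a muscle of the lower hindlimb, of both legs of 14 rats (28 muscles). Plasmids were brought into the muscle by in vivo electrotransfer, in which electric pulses open cell membranes to injected DNA. In the VDR-OE arm (rats 416 to 422) the right TA received a plasmid with the mouse vitamin D receptor (VDR) and the left TA an empty vector (VDR-OE control, n = 7 each). In the VDR-KD arm (rats 423 to 429) the right TA received a short hairpin RNA against VDR and the left TA a scramble hairpin (VDR-KD control, n = 7 each). All rats had carprofen, an anti-inflammatory drug, at 50 mg per kg after the procedure. The study describes male Wistar rats of 8 weeks at housing, with muscles collected 10 days after electrotransfer and after an overnight fast. It does not describe the VDR-KD arm, whose strain, age and collection time are not given in the sources used here. The labels name pCAGGS for the VDR construct and the study's methods another backbone. Only fibres and cells that took up the plasmid can carry it, and each sample is a whole piece of muscle.

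Fibrillar collagens are made as procollagens with extra domains at both ends. In the endoplasmic reticulum, hydroxylases modify proline and lysine residues of the chains before the triple helix closes. Outside the cell, ADAMTS2 and its close relative ADAMTS14 cut off the N-propeptide, and BMP1, a tolloid metalloproteinase that despite its name is no growth factor, cuts off the C-propeptide, after which the molecules assemble into fibrils. P3H3 belongs to the prolyl 3-hydroxylase family and resides in the endoplasmic reticulum. In skeletal muscle, fibroblasts of the connective tissue around the fibres are the main source of fibrillar collagen.

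Promoter windows were available for 3 of the 4 genes and are shown because the treatment changes a transcription factor. They come from RefSeq on the GRCr8 build, which is not the Rnor 6.0 build of the counts, and cover 250 bases before to 50 bases after an annotated start. Capitals mark matches to the letters of a VDR half-site (AGGTCA and its variants GGGTCA as well as AGTTCA as well as GGTTCA, on either strand). The windows are at chr10:35421780-35422079 (plus strand) for Adamts2, chr20:29762633-29762932 (minus strand) for Adamts14 and chr4:159347955-159348254 (minus strand) for P3h3. Bmp1 has no entry in the table.
Adamts2: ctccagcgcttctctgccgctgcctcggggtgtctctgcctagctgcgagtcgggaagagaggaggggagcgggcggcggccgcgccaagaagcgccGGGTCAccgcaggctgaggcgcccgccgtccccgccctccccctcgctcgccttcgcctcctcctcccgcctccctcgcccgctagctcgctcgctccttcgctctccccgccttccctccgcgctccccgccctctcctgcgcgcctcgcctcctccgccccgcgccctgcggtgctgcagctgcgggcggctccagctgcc
Adamts14: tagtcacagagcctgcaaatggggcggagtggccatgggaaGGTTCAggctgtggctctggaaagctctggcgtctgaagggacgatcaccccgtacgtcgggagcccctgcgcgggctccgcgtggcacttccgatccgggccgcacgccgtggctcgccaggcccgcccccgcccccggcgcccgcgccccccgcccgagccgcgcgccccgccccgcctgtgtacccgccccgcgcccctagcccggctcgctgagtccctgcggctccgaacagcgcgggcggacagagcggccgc
P3h3: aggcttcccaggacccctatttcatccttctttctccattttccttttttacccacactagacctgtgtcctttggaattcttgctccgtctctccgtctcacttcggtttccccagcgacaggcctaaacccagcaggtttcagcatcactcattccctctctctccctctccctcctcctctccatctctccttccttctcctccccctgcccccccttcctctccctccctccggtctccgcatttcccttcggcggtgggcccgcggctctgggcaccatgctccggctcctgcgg

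The Adamts2 window held 1 half-site, GGGTCA, whose first base lies at -153 from the start, and GGGTCA on either strand was found in 13.8% of 33365 different promoter windows of the same length. The Adamts14 window held 1 half-site, GGTTCA, at -209, a sequence found in 11.7% of all windows. The P3h3 window held none of the 4 half-sites, of which at least 1 was found in 44.4% of all windows. No window of the 3 held 2 half-sites 3 bases apart on the same strand, the spacing of the best known VDR elements, which 0.0989% of all windows held. Adamts2 and Adamts14 windows were rich in G and C (76.7% and 76.0%, against a median of 51.7% over all windows) and held 5 and 7 GC boxes (GGGCGG, either strand), which occurred in 33.1% of all windows. The P3h3 window had 59.0% G and C and no GC box. These matches of letters describe the windows only.

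Total counts per muscle ranged from 36684220 to 46312167, and the counts of any 2 muscles of a group differed by more than counting noise. The counts at the 4 genes ranged from 112 to 1064 for Adamts14, from 487 to 3212 for Adamts2, from 632 to 3595 for Bmp1 and from 390 to 2605 for P3h3, so counting error was small beside the spread between rats. Vdr, the targeted gene, was measured first, as CPM (counts scaled to a common library size, with TMM factors), with reads of the mouse construct counted at the rat gene. In VDR-OE legs the lowest value was 5.45 CPM, the median 2298.9 and the highest 5938.3, against 1.91 to 6.73 CPM in empty vector legs (fitted log2 change 8.52 ± 1.49 (SE), adjusted p = 0.0228). The lowest was rat 419, whose right leg labelled VDR-OE had 5.45 CPM and whose left leg had 5.75, so that this library did not carry the rise in Vdr that its label gives. In the VDR-KD arm Vdr lay between 1.94 and 6.54 CPM in legs labelled VDR-KD and between 1.39 and 8.12 in scramble legs, with no lowering detected (fitted log2 change -0.26 ± 0.40 (SE), adjusted p = 0.84). Without rat 419 the Vdr change of the VDR-OE arm was 9.15 ± 0.78 (SE, adjusted p = 0.0175). The library of rat 419 and the label VDR-KD are therefore read with that limit, and tested differences that use the VDR-OE legs are also given without that rat. None of the 6 markers of fast muscle fibres had a symbol in the sources used here, so the labelled muscle could not be checked by its own markers.

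The N-proteinase gene Adamts2 was lowest in empty vector legs. It lay between 14.8 and 38.0 CPM there (median 19.8, mean 21.3 ± 7.77 (SD, n = 7)), between 18.5 and 69.2 in VDR-OE legs (median 31.5, mean 35.4 ± 17), between 20.2 and 47.3 in scramble legs (median 32.3, mean 33.6 ± 10.3) and between 20.1 and 54.5 in VDR-KD legs (median 33.5, mean 35.3 ± 14.2). All 4 ranges overlapped, and rat 419 had the highest value of its arm in both legs.

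Adamts14, the second N-proteinase gene, had the fewest counts of the 4 genes and was also lowest in empty vector legs. Its CPM ranged from 3.39 to 9.26 in empty vector legs (median 5.81, mean 5.97 ± 2.46 (SD, n = 7)), from 6.15 to 15.4 in VDR-OE legs (median 9.65, mean 9.80 ± 3.16), from 5.36 to 10.5 in scramble legs (median 8.70, mean 8.18 ± 1.98) and from 5.73 to 18.2 in VDR-KD legs (median 10.7, mean 10.8 ± 4.58). The ranges overlapped, although 5 of 7 VDR-OE legs lay above the highest empty vector leg.

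Bmp1, the C-proteinase gene, ranged from 19.2 to 41.6 CPM in empty vector legs (median 25.8, mean 28.3 ± 7.11 (SD, n = 7)), from 25.7 to 77.4 in VDR-OE legs (median 38.6, mean 41.7 ± 17.1), from 25.4 to 50.3 in scramble legs (median 33, mean 36 ± 8.83) and from 24.0 to 58.6 in VDR-KD legs (median 40.5, mean 38.9 ± 13.4). The ranges overlapped here too. The VDR-OE leg of rat 419 held the highest Bmp1 level of the 28 muscles.

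P3h3 lay in a narrow range in empty vector legs. It ranged from 11.9 to 21.7 CPM in empty vector legs (median 18.1, mean 18.3 ± 3.54 (SD, n = 7)), from 19.4 to 41.0 in VDR-OE legs (median 27.7, mean 29.0 ± 7.52), from 21.2 to 38.6 in scramble legs (median 26.1, mean 28.1 ± 7.67) and from 22.7 to 44.7 in VDR-KD legs (median 27.7, mean 30.4 ± 8.58). Of the VDR-OE legs 6 of 7 lay above every empty vector leg, and the VDR-KD legs, which are of other rats, did not overlap with the empty vector legs at all. Among 15112 genes 0.45% had every VDR-KD leg above every empty vector leg. P3h3 was named through a contrast with these empty vector legs, so nothing is read from either count or from that share.

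**Figure D1:**
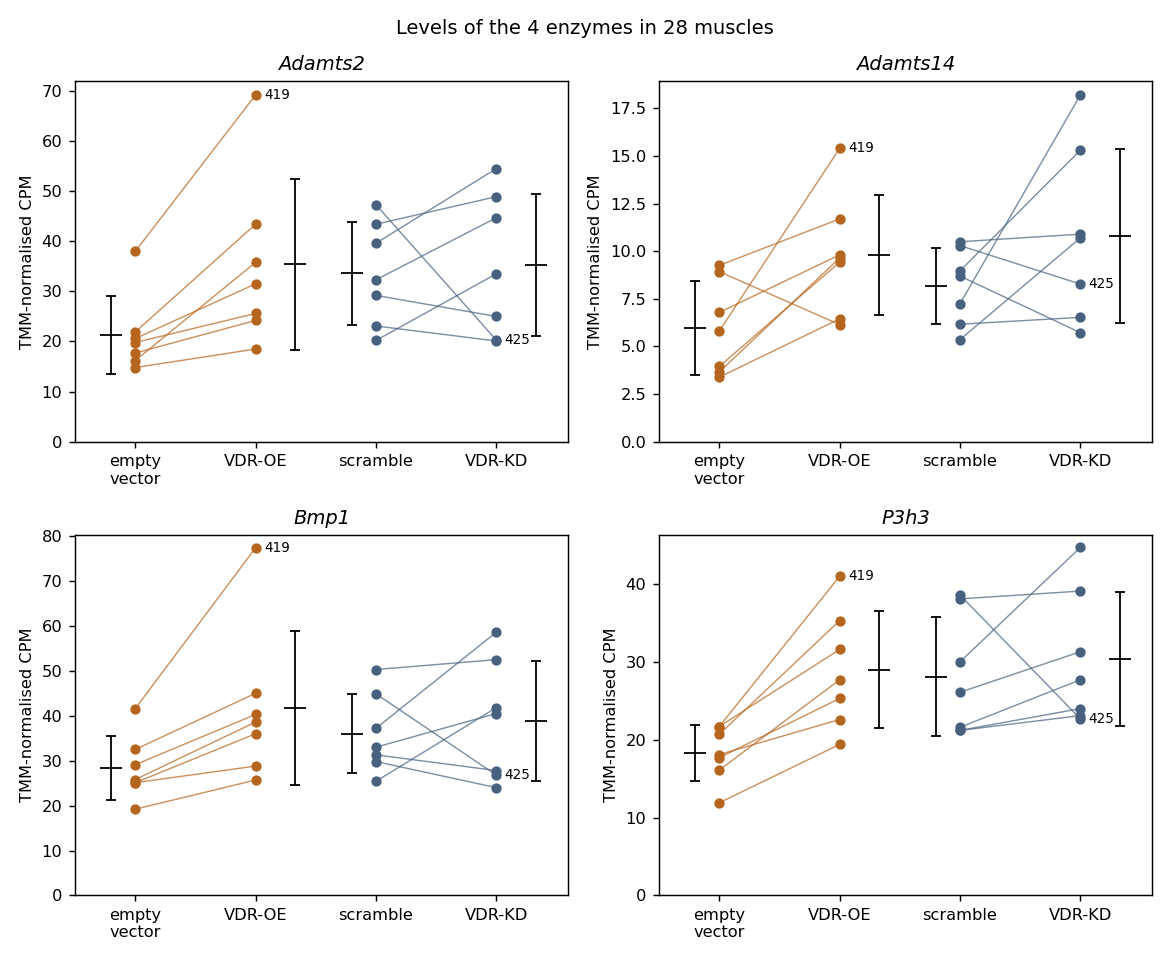
Levels of the 4 enzyme genes in the 28 muscles, in TMM-normalised CPM on linear axes from 0. Points are muscles, lines join the legs of a rat, and the black bar beside each group is its mean ± SD (n = 7). In each panel the empty vector legs have the lowest mean, and the VDR-OE leg of rat 419 is the highest of its arm.

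By their means the 4 genes had the same lowest group, the empty vector legs, followed by scramble legs. The order of VDR-OE and VDR-KD legs differed between genes. The 4 genes were named through a contrast with these same legs. Among genes that rise in it, those low in these legs are favoured, so the shared lowest group is a description. Adamts2 means ran from empty vector to scramble, VDR-KD and VDR-OE legs. Adamts14 and P3h3 did not share that order, since for Adamts14 VDR-KD stood highest (10.8 CPM), followed by VDR-OE (9.80) and scramble legs (8.18), and for P3h3 VDR-KD (30.4) was followed by VDR-OE (29.0) and scramble legs (28.1). Bmp1 means were highest in VDR-OE legs (41.7), then VDR-KD (38.9) and scramble legs (36). Apart from VDR-OE with empty vector legs, no 2 groups compared differed in these genes past the adjusted threshold, as given below.

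Within rats, the VDR-OE leg was compared with the empty vector leg. The construct was always in the right leg and the empty vector in the left, so side and construct cannot be told apart. In 7 of 7 rats the VDR-OE leg held more Adamts2, Bmp1 and P3h3, which was so for 4.95% of 15112 genes, and in 6 of 7 it held more Adamts14. The mean within-rat log2 ratio was 0.68 ± 0.32 (SD, n = 7) for Adamts2, from 0.32 in rat 422 to 1.14 in rat 421. For Bmp1 it was 0.51 ± 0.21, from 0.20 in rat 416 to 0.90 in rat 419, and for P3h3 0.65 ± 0.20, from 0.32 in rat 416 to 0.92 in rat 419. These means correspond to 1.6-, 1.42- and 1.57-fold. Each of the 3 had p = 0.0156 in the exact paired permutation test (two-sided), the smallest p that 7 pairs allow, and 0.0417 after adjustment over 8 tests (4 genes in 2 arms). All 4 genes were named through a small p in this contrast, which the adjustment does not cover. These p-values and the share of 4.95% are therefore descriptions, as are those without rat 419 below.

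Adamts14 had the largest mean ratio, 0.76 ± 0.71 (SD, n = 7), and the largest spread. It was lower in the VDR-OE leg of rat 416 (-0.54) and had ratios of at least 1.25 in rats 419, 421 and 422. Its exact paired permutation test (two-sided) gave p = 0.0625 (adjusted p = 0.125), so the mean was not separated from the spread between rats. Without rat 419, whose Vdr was not raised, the mean ratios were 0.65 for Adamts2, 0.65 for Adamts14, 0.44 for Bmp1 and 0.61 for P3h3 (n = 6), with Adamts2, Bmp1 and P3h3 higher in 6 of 6 rats (exact paired permutation test, p = 0.0312 for each of these 3, the smallest that 6 pairs allow, and adjusted p = 0.0833, which 6 pairs cannot bring under 0.05 here).

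**Figure D2:**
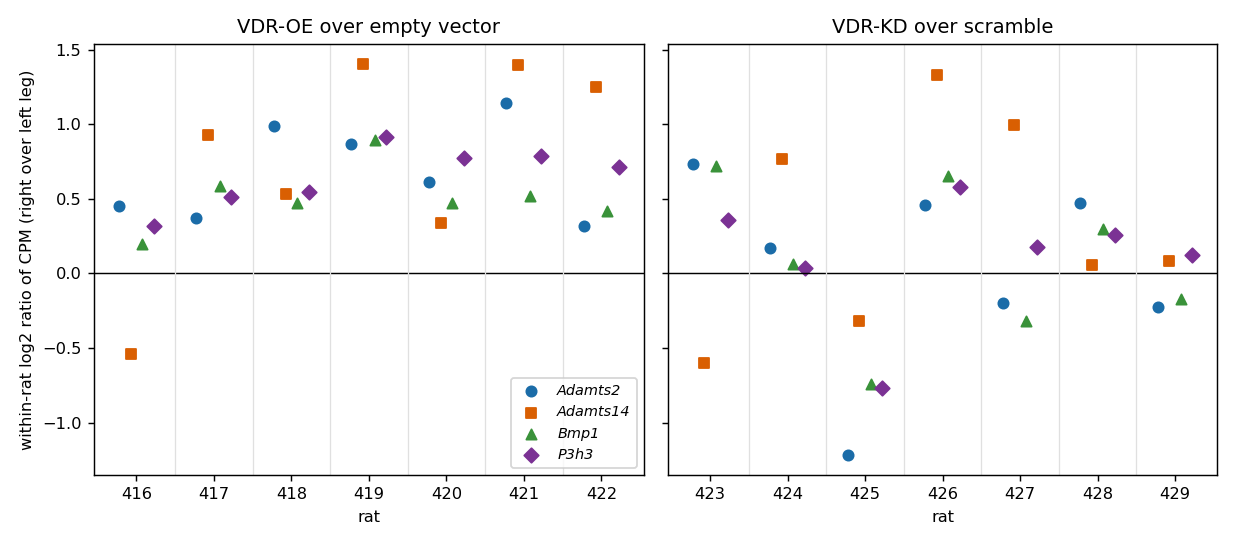
Within-rat log2 ratio of CPM, right leg over left leg, for each rat and enzyme gene in the VDR-OE arm (left panel) and the VDR-KD arm (right panel). In the VDR-OE arm every point but Adamts14 in rat 416 lies above 0, and in the VDR-KD arm points lie on both sides, with rat 425 below 0 for the 4 genes.

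The same contrast was fitted across all genes with edgeR's quasi-likelihood test and the rat as a block. Adamts2 rose by 0.69 ± 0.11 on the log2 scale (SE, adjusted p = 0.020), Bmp1 by 0.52 ± 0.08 (adjusted p = 0.0185) and P3h3 by 0.66 ± 0.08 (adjusted p = 0.0159). Adamts14 had 0.77 ± 0.23 and an adjusted p of 0.0686. Of 14526 genes tested, 7.14% passed the threshold, 4.08% as higher in VDR-OE legs. Without rat 419 the changes were 0.66 ± 0.13, 0.66 ± 0.24, 0.45 ± 0.07 and 0.62 ± 0.08 for Adamts2, Adamts14, Bmp1 and P3h3, of which Bmp1 and P3h3 passed, and 0.716% of 14395 genes passed as higher. The count of 3 in 4 rests on genes named for small p-values in this contrast, and nothing is read from it against that background.

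These calls rested on particular rats. Adamts2, Bmp1 and P3h3 kept log2 changes of 0.61 to 0.75, 0.45 to 0.57 and 0.62 to 0.71 with any rat left out, but none of the 3 passed without rat 418, 420 or 421 (adjusted p between 0.0609 and 0.0699), when 1, 4 and 0 genes of all passed. Bmp1 also missed the threshold without rat 417 (adjusted p = 0.0504) and Adamts2 without rat 419 (adjusted p = 0.0513), while Bmp1 and P3h3 passed without rat 419 (adjusted p = 0.0439 for each). Without rat 416, the one rat in which Adamts14 was lower in the VDR-OE leg, Adamts14 passed (0.98, adjusted p = 0.00683). In that fit 4768 genes of all passed, against 1037 with every rat kept, so nothing is read from this pass. With the legs not paired by rat, that is without the block, Adamts2 and Bmp1 missed the threshold (0.74, adjusted p = 0.102, and 0.56, adjusted p = 0.119).

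The enzymes' ratios were set beside that of Vdr in each rat. In rat 419, with a Vdr log2 ratio of -0.08, the 4 enzymes had ratios of 0.86 (Adamts2), 1.41 (Adamts14), 0.90 (Bmp1) and 0.92 (P3h3). Those of Adamts14, Bmp1 and P3h3 were the highest of the 7 rats. In rat 416, with a Vdr ratio of 10.02, the enzymes had 0.45, -0.54, 0.20 and 0.32 in the same order, the lowest of the 7 rats for all but Adamts2. In rat 422, with the highest Vdr ratio (10.74), they had 0.32, 1.25, 0.42 and 0.71. Pearson's r with the Vdr ratio over the 7 rats was below 0 for each enzyme, from -0.80 for Bmp1 to -0.35 for Adamts14 (exact permutation p from 0.0502 to 0.43, adjusted p from 0.201 to 0.43 over 4 relations). Spearman's rho was lowest for Adamts2 (-0.82, exact permutation p = 0.0341, adjusted p = 0.137). Rats 419 and 418 (Vdr ratio 5.68) stood apart from the other 5 in Vdr, so the pooled r is not read as a relation. Over those 5 rats r lay between -0.88 for Adamts2 and -0.12 for Adamts14, too few for a test.

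**Figure D3:**
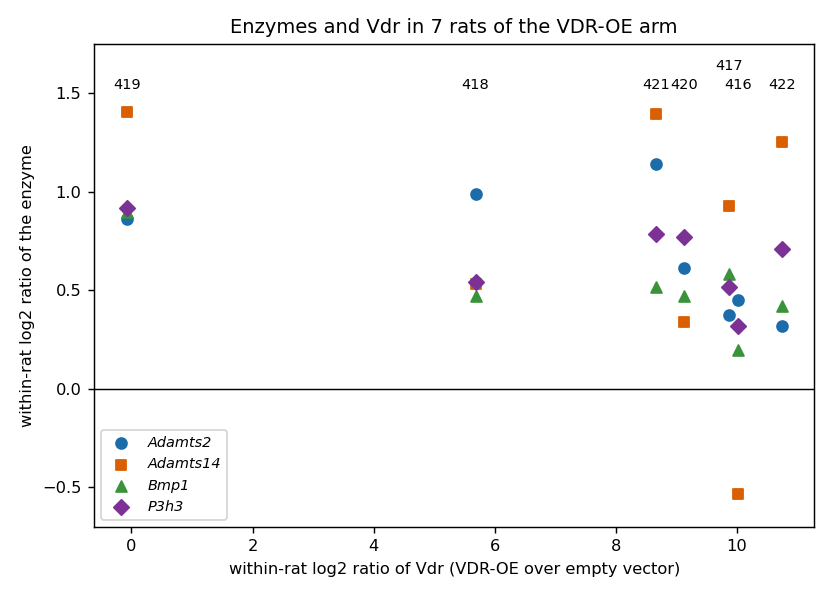
Within-rat log2 ratio of each enzyme gene against that of Vdr in the 7 rats of the VDR-OE arm, with the rat's number above its points. Rat 419, at -0.08 for Vdr, has enzyme ratios between 0.86 and 1.41, and the 5 rats with Vdr ratios from 8.67 to 10.74 have ratios from -0.54 to 1.40.

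In the VDR-KD arm no change of the 4 enzymes was detected. Within rats the mean log2 ratio of VDR-KD over scramble legs was 0.03 ± 0.65 (SD, n = 7) for Adamts2, 0.33 ± 0.71 for Adamts14, 0.07 ± 0.53 for Bmp1 and 0.11 ± 0.42 for P3h3, and the exact paired permutation tests (two-sided) gave p from 0.266 to 0.953. The ratios were above 0 in 4, 5, 4 and 6 of 7 rats. Rat 425 had the lowest ratio for Adamts2 (-1.22), Bmp1 (-0.74) and P3h3 (-0.77), and was the only rat in which all 4 were lower in the VDR-KD leg. In rat 426, by contrast, the ratios were 0.46, 1.33, 0.65 and 0.58 in the order Adamts2, Adamts14, Bmp1 and P3h3.

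The fit across genes gave log2 changes of 0.04 ± 0.22 (SE) for Adamts2, 0.34 ± 0.25 for Adamts14, 0.08 ± 0.18 for Bmp1 and 0.12 ± 0.15 for P3h3 in the VDR-KD arm (adjusted p from 0.80 to 0.95). Of 14652 genes tested 0% passed, a count of 0 with edgeR's quasi-likelihood and likelihood ratio tests and with DESeq2. At an unadjusted p under 0.05 there were 395 genes by the quasi-likelihood test (2.7%), a share smaller than that threshold itself. The standard errors were larger than in the VDR-OE arm for each enzyme, so a change of the size seen there is less easily detected.

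Whether the change differed between the arms was tested directly in a fit of all 28 muscles. The VDR-OE change minus the VDR-KD change was 0.64 ± 0.26 (SE) for Adamts2, 0.43 ± 0.36 for Adamts14, 0.44 ± 0.21 for Bmp1 and 0.54 ± 0.17 for P3h3. Their adjusted p-values were 0.60, 0.91, 0.69 and 0.52, so that none passed, and unadjusted p-values were 0.0248, 0.246, 0.0509 and 0.00703. The enzymes were named through a small p in the VDR-OE change, which is a part of this difference. That choice favours a difference above 0, and neither set of p-values allows for it, so they are descriptions. None of the 15112 genes passed (0%), Vdr included (adjusted p = 0.22), against 1099 at an unadjusted p under 0.05, 18 by the likelihood ratio test and 44 by DESeq2. Without rat 419 the differences were 0.61, 0.32, 0.37 and 0.50 in the order given (adjusted p from 0.59 to 0.97). The arms are thus not shown to differ in these enzymes.

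The 2 sets of control legs were compared because they set the base of each within-rat change. Fitted levels were lower in empty vector than in scramble legs, with a log2 difference of -0.66 ± 0.23 (SE) for Adamts2, -0.46 ± 0.25 for Adamts14, -0.35 ± 0.18 for Bmp1 and -0.63 ± 0.17 for P3h3. None passed the adjusted threshold (adjusted p = 0.13, 0.27, 0.24 and 0.096), though P3h3 did by the likelihood ratio test (adjusted p = 0.0355), by DESeq2 (0.0206) and without rat 429 (0.0456). Of all genes 441, 1035 and 788 passed in these settings, in the same order. Of 14458 genes 0.0277% passed, which were Stbd1, Rnf185, Herpud1 and AABR07026032.1, all higher in empty vector legs and named here after their values were seen. Plasmid, arm and rats differ together between these legs and cannot be told apart. This comparison and that of the VDR-OE arm share the empty vector legs.

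In addition, 2 comparisons between the arms were added after the control legs had been seen. VDR-OE legs differed from VDR-KD legs by 0.01 ± 0.30 (SE) for Adamts2, -0.14 ± 0.27 for Adamts14, 0.10 ± 0.25 for Bmp1 and -0.06 ± 0.19 for P3h3. They differed from scramble legs by 0.09 ± 0.27, 0.27 ± 0.21, 0.22 ± 0.22 and 0.05 ± 0.19 in the same order. No enzyme passed in either comparison, in which 0.00681% and 0.00685% of genes passed, in each case Vdr alone. Without rat 419 the differences from VDR-KD legs were -0.24 ± 0.27, -0.29 ± 0.27, -0.12 ± 0.22 and -0.17 ± 0.19, and those from scramble legs -0.16 ± 0.23, 0.13 ± 0.19, -0.001 ± 0.17 and -0.05 ± 0.19, in the order Adamts2, Adamts14, Bmp1 and P3h3, and none passed.

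**Figure D4:**
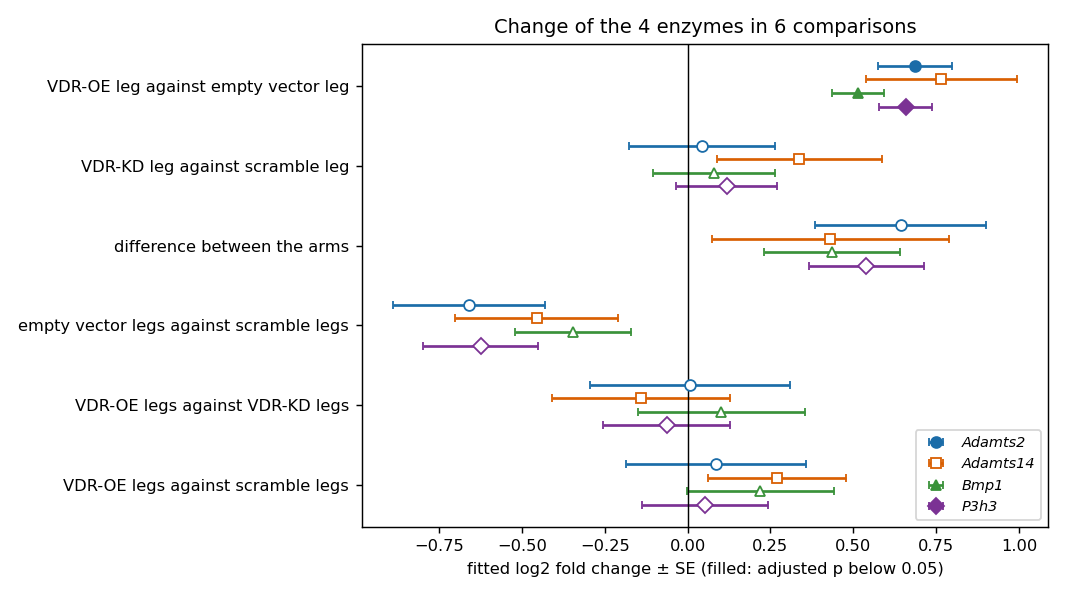
Fitted log2 fold change ± SE of the 4 enzyme genes in 6 comparisons. Filled symbols have an adjusted p below 0.05, which only Adamts2, Bmp1 and P3h3 in VDR-OE against empty vector legs have. Values in the last 2 comparisons lie between -0.14 and 0.27.

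Partner genes of the 4 enzymes were taken from lists of the collagen pathway, of which 22 of 50 genes had a symbol and were tested, again those with small p-values in the VDR-OE contrast. Without the 4 enzymes, 14 of 18 rose in VDR-OE legs and none fell, with a median log2 change of 0.68 against -0.003 over all genes tested, of which 4.08% rose. These 18 could be counted only because a small p in this contrast gave them a symbol, so nothing is read from the share. Without rat 419, 4 of the 18 passed (Pcolce, Ppib, Fkbp10 and Col1a1), and the median change was 0.65. Among partners of the C-proteinase, Pcolce, which encodes an enhancer of BMP1 cleavage, rose by 0.69 ± 0.13 (SE, adjusted p = 0.0251). Tll1, a tolloid relative of Bmp1, had 0.48 ± 0.13 (adjusted p = 0.0557). Of the prolyl 3-hydroxylase list, P3h1 rose by 0.32 ± 0.07 (adjusted p = 0.0324) and Ppib, encoding the cyclophilin B that works in a complex with P3H1, by 0.53 ± 0.09 (adjusted p = 0.020). Adamts3, Tll2, Pcolce2, P3h2, P3h4 and Crtap had no symbol in the sources used here and were not analysed. No gene of the prolyl 4-hydroxylase list or of the lysyl hydroxylase list had a symbol.

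Of 6 genes listed for collagen folding and export, 3 had a symbol, again only through a small p in the VDR-OE contrast. These 3 rose in VDR-OE legs, beside the 4.08% of all genes, and nothing is read from their number. Fkbp10, a prolyl isomerase of the endoplasmic reticulum, had 0.73 ± 0.10 (SE, adjusted p = 0.0163), the transcription factor Creb3l1 0.56 ± 0.11 (adjusted p = 0.0271) and the COPII coat gene Sec24d 0.54 ± 0.12 (adjusted p = 0.0397). Of 4 cross-linking oxidases only Loxl1 passed (0.93 ± 0.23, adjusted p = 0.0446), while Lox, which encodes lysyl oxidase, had 0.85 ± 0.22 (adjusted p = 0.0509) and Loxl2 0.57 ± 0.16 (adjusted p = 0.0563). Besides Lox and Loxl1, BMP1-type proteinases also cut the small proteoglycans biglycan and osteoglycin, and Bgn (0.85 ± 0.16, adjusted p = 0.0282) and Ogn (0.84 ± 0.15, adjusted p = 0.0221) rose. Of 9 fibrillar procollagen genes 5 had a symbol, again through this contrast, and these 5 rose (4.08% of all genes did), among them Col1a1 (0.84 ± 0.15, adjusted p = 0.0224), Col3a1 (0.84 ± 0.16, adjusted p = 0.0271) and Col5a1 (0.74 ± 0.16, adjusted p = 0.0353). In the VDR-KD arm none of these 18 genes passed, with changes from -0.12 to 0.48 and a median of 0.10. In empty vector against scramble legs the 18 lay between -1.06 and -0.37, and none passed. These 18 too were named through a contrast with the empty vector legs, so this direction is not independent evidence.

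The enzymes were then set against their substrates within each rat. The mean of Col1a1 and Col3a1 was used, because Col1a2, the third chain planned, had no symbol. That mean log2 ratio was 0.83 ± 0.37 (SD, n = 7) for VDR-OE over empty vector legs, from 0.41 to 1.45, and was -0.11 ± 0.91 in VDR-KD over scramble legs, from -1.86 to 0.81. In the VDR-OE arm the enzyme ratio minus the procollagen ratio was -0.16 ± 0.24 for Adamts2 (below 0 in 6 of 7 rats), -0.07 ± 0.82 for Adamts14 (3 of 7), -0.33 ± 0.45 for Bmp1 (5 of 7) and -0.18 ± 0.41 for P3h3 (4 of 7). The exact paired permutation tests (two-sided) gave p from 0.125 to 0.828 and adjusted p of at least 0.5 over 8 tests. In the VDR-KD arm the differences were 0.13 ± 0.39, 0.44 ± 1.12, 0.18 ± 0.49 and 0.22 ± 0.55 in the same order (exact paired permutation tests, p from 0.359 to 0.438). Without rat 419 the VDR-OE differences were -0.22 ± 0.18 for Adamts2 (below 0 in 6 of 6 rats, exact paired permutation p = 0.0312, adjusted p = 0.25), -0.22 ± 0.79 for Adamts14, -0.43 ± 0.40 for Bmp1 and -0.26 ± 0.38 for P3h3 (exact paired permutation p from 0.0938 to 0.562 for these 3). The enzymes, Col1a1 and Col3a1 all had a symbol through a small p in the VDR-OE contrast. The differences of that arm and their p-values are therefore descriptions. No enzyme was shown to move by more or less than its substrates in either arm.

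**Figure D5:**
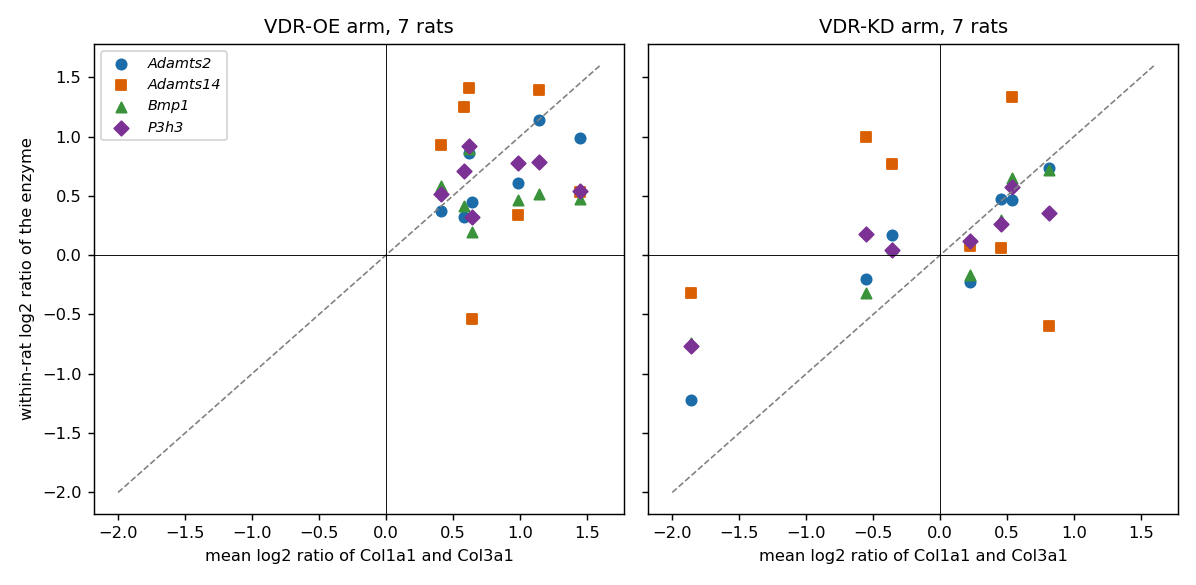
Within-rat log2 ratio of each enzyme gene against the mean ratio of Col1a1 and Col3a1, for 7 rats per arm, with the dashed line at equal change. In the VDR-OE arm the procollagen mean runs from 0.41 to 1.45, and in the VDR-KD arm from -1.86 in rat 425 to 0.81, where Adamts14 lies farthest from the line in either direction.

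From rat to rat, Adamts2, Bmp1 and P3h3 moved together in the VDR-KD arm. Over 7 rats Pearson's r of the within-rat ratios was 0.95 between Adamts2 and Bmp1 (exact permutation p = 0.000794, adjusted p = 0.00952 over 12 relations), 0.91 between Adamts2 and P3h3 (exact permutation p = 0.0123, adjusted p = 0.0492) and 0.86 between Bmp1 and P3h3 (exact permutation p = 0.00496, adjusted p = 0.0298). Spearman's rho was 0.93, 0.79 and 0.82, with adjusted exact permutation p of 0.081, 0.192 and 0.192, so the ranks alone did not pass. Without rats 423 and 425, the farthest from the median ratio of the gene named first in each pair, r was 0.92, 0.62 and 0.81 over 5 rats. The 3 relations of Adamts14 in that arm had r between 0.11 and 0.43 (exact permutation p from 0.373 to 0.809). Every partner gene followed rat by rat also had its lowest ratio of that arm in rat 425. These ratios were -2.15 for Col1a1, -1.57 for Col3a1, -0.94 for Pcolce, -0.82 for Tll1, -0.49 for Ppib and -0.28 for P3h1. Correlations of the partner genes' ratios with those of the enzymes were not tested. The shared movement is therefore not shown to be particular to the enzymes.

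In the VDR-OE arm the 6 relations had r between 0.32 and 0.78, none past the adjusted threshold. The highest were Adamts14 with P3h3 (r = 0.78, exact permutation p = 0.0321, adjusted p = 0.0964, rho = 0.75, adjusted p = 0.199) and Bmp1 with P3h3 (r = 0.75, exact permutation p = 0.0496, adjusted p = 0.119, rho = 0.54, adjusted p = 0.457). The 2 rats farthest from the median ratio of the gene named first in each pair were then left out. For Adamts14 with P3h3 r was 0.85 without rats 416 and 420. For Bmp1 with P3h3 it was -0.44 without rats 416 and 419, so that relation rests on these 2 rats. Without rat 419 alone the 6 relations had r between 0.25 and 0.77 over 6 rats (adjusted exact permutation p from 0.21 to 0.778). All ratios of a rat come from the same 2 libraries.

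Over the 28 muscles, Adamts2, Bmp1 and P3h3 levels also followed each other, with Pearson's r of log2 CPM of 0.95 between Adamts2 and Bmp1, 0.91 between Adamts2 and P3h3 and 0.90 between Bmp1 and P3h3. Adamts14 was less like them (0.64 with Adamts2, 0.62 with Bmp1 and 0.78 with P3h3). These r are descriptions across 28 muscles that share groups, rats and library composition. Among 15111 other genes, the 5 most like Adamts2 were Antxr1 (0.97), Mmp2 (0.97), Col3a1 (0.97), Col14a1 (0.96) and Col5a1 (0.96), which encode an anthrax toxin receptor, a gelatinase and 3 collagen chains. Those most like Bmp1 were Dbn1 (0.96), Adamts2 (0.95), Col5a1 (0.94), Mrgprf (0.94) and Mmp2 (0.94). Those most like P3h3 were Ssc5d (0.97), Fkbp10 (0.96), Col16a1 (0.96), Fstl1 (0.96) and Aebp1 (0.96). For Adamts14 they were a gene without a symbol (0.92), Emilin1 (0.92), Ptprf (0.91), Mrc2 (0.91), which encodes a receptor that takes up collagen, and S1pr2 (0.90). No gene was among the 5 for Adamts14 and for another enzyme.

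Markers of other cells that whole muscle holds could be followed for 7 of 36 genes listed. These 7 had a symbol through a small p in the VDR-OE contrast, so their rise there was largely set by that choice and is a description. Of 6 fibroblast markers 4 had a symbol (Pdgfra, Dpt, Dcn and Lum) and of 6 macrophage markers 3 (Csf1r, Cd163 and Mrc1), and none was at 0 in any muscle. The 4 fibroblast markers summed to 250.1 to 425.2 CPM in empty vector legs, 332.6 to 747.3 in VDR-OE legs, 337.0 to 642.9 in scramble legs and 371.7 to 777.3 in VDR-KD legs. The VDR-OE leg held more of them in 7 of 7 rats (mean log2 ratio 0.72 ± 0.31 (SD), close to the 0.51 to 0.76 of the enzymes), and the VDR-KD leg in 6 of 7 (0.15 ± 0.42). The 3 macrophage markers summed to 33.5 to 100.3 CPM in empty vector legs, 78.1 to 207.8 in VDR-OE legs, 79.8 to 293.6 in scramble legs and 83.8 to 453.4 in VDR-KD legs, with mean log2 ratios of 1.24 ± 0.86 (7 of 7 rats higher) and 0.54 ± 1.18 (5 of 7). Without rat 419 the VDR-OE ratios of the sums were 0.71 ± 0.34 and 1.39 ± 0.83 (n = 6). In the VDR-OE fit these 7 rose, beside 4.08% of all genes, and 4 of them passed without rat 419 (Pdgfra, Dpt, Cd163 and Mrc1), while the other listed markers were not analysed. In empty vector against scramble legs the 7 lay between -1.57 and -0.56 with none past the threshold, a direction that the same choice favours. Their part in the enzymes' levels was not tested, and in whole muscle a change in the number of fibroblasts and a change in RNA per cell cannot be told apart. Markers of tendon, endothelial, satellite, fat and Schwann cells had no symbol in the sources used here.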

How the data were processed

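RNA was extracted with RNeasy kits and libraries were made with TruSeq kits and sequenced as paired-end reads on an Illumina HiSeq. The authors trimmed adaptors with trimmomatic, dropped unpaired reads, aligned and counted with Rsubread, and deposited the raw, unnormalised count of each gene in 1 file per muscle (Rnor 6.0, Ensembl release 89). Per the submitters' processing notes they used bcl2fastq 2.17.1.14, FastQC 0.11.5 and edgeR 3.18.1. The strand setting of the counting is not given in the sources used here. Adamts2, Bmp1 and P3h3 each overlap 1 long non-coding RNA gene in RefSeq (GRCr8), so reads of these could be shared.

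A gene entered a fit if at least 7 of its samples passed the CPM that 10 counts make in the median library. edgeR 4.0.16 (R 4.3.3) was used with TMM scaling, the quasi-likelihood test, the rat as a block within arms, and Benjamini-Hochberg adjustment at 0.05 over all genes. The SE of a fitted change is the size of the log2 change divided by the square root of the test's F statistic. It restates the test and was not estimated separately. The study's likelihood ratio test was an alternative, since the quasi-likelihood test also allows for the uncertainty of each gene's dispersion. Pairs come from the animal identifier: the 2 legs' deviations from their group means had a mean correlation of 0.24 within VDR-OE rats and -0.11 within VDR-KD rats. Between legs of different rats the means were -0.04 and 0.02. A rat's own leg was the best match in 4 of 7 VDR-OE rats and 0 of 7 VDR-KD rats. In the VDR-KD arm the pairing thus rests on the identifier and is not shown by the counts. Within-rat ratios used log2 CPM with a prior count of 0.5, and exact tests ran in Python with SciPy. Other alternatives were DESeq2 1.42.0, RLE scaling, 2 other filters on low counts, no block, all 28 samples in 1 fit and each rat left out. Nothing says how many litters or batches the rats came from, and no files were identical.

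Named are Vdr, the 4 enzymes, the genes of the N-proteinase, C-proteinase and prolyl 3-hydroxylase lists, of each other list the 3 with the smallest p in the VDR-OE comparison, and for each enzyme the 5 genes most like it over 28 muscles. Symbols came only from the study's list of 1998 genes. Members and lists were chosen with earlier results of these data known.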

Additional observations from a re-analysis of the deposited data

Results flagged for a closer look

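In 66 groups of 7 values (levels and within-rat ratios of Vdr, the 4 enzymes and 6 partner genes) 4 values lay far from the other 6 of their group by Dixon's test at 95%, and about 1 in 20 groups would by chance. Adamts2 in the empty vector leg of rat 419 was 38.0 CPM, against 14.8 to 21.9 in the other empty vector legs. Bmp1 in the leg of the same rat labelled VDR-OE was 77.4 CPM, against 25.7 to 45.0 in the other 6. The within-rat ratio of P3h3 in rat 425 of the VDR-KD arm was -0.77, against 0.04 to 0.58 in the other 6 rats. The within-rat ratio of Ppib in rat 416 of the VDR-OE arm was 0.058, the lowest of the arm and against 0.46 to 0.76 in the other 6.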

How the results depend on the processing

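Of 406 recomputed values, 334 kept their direction and, where tested, their side of the threshold (counts of genes within 1.5 times). In VDR-OE against empty vector legs, where 1037 genes passed, 2262 passed by the likelihood ratio test, 2752 by DESeq2 and 229 with all 28 muscles in 1 fit. Adamts14 passed by the first 2 (0.77 by each). Adamts2 and Bmp1 did not pass without the replicate block, that is with the legs not paired by rat (0.74 and 0.56), or with all 28 muscles in 1 fit (0.68 and 0.51). With each rat left out, 0 to 4768 genes passed, with changes of 0.61 to 0.75 (Adamts2), 0.66 to 0.98 (Adamts14), 0.45 to 0.57 (Bmp1) and 0.62 to 0.71 (P3h3). The mean within-rat ratios without rat 419 (0.65, 0.44 and 0.61 for Adamts2, Bmp1 and P3h3) could not pass with 6 pairs. In the VDR-KD arm, leaving out a rat gave changes from -0.079 to 0.25 for Adamts2 and from -0.033 to 0.22 for Bmp1: Adamts2 turned negative without rats 423 (-0.079), 426 (-0.035) and 428 (-0.029), and Bmp1 without 423 (-0.033) and 426 (-0.023). In the difference between the arms (0 genes) 18 passed by the likelihood ratio test, 44 by DESeq2, 1 with either other filter, 11 without the block and 0 to 1 with a rat left out. In empty vector against scramble legs (4 genes) 441, 1035, 12 (RLE scaling), 7 (no filter), 12 (filter in 2 samples) and 132 (all 28 muscles) passed, and 0 to 788 with a rat left out. P3h3 passed there by the likelihood ratio test (-0.63), by DESeq2 (-0.63) and without rat 429 (-0.67), in a range of -0.68 to -0.53 with a rat left out. Without rat 419, VDR-OE minus VDR-KD legs turned to -0.238 (Adamts2) and -0.117 (Bmp1), and VDR-OE minus scramble legs to -0.162 (Adamts2), -0.001 (Bmp1) and -0.049 (P3h3), none past the threshold with or without it. The correlations of Bmp1 with P3h3 (VDR-OE arm) and Adamts14 with Bmp1 (VDR-KD arm) turned to -0.44 and -0.13. These leave out the 2 rats farthest from the median ratio of the gene named first. The causes were not tested.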
